A study of Mus musculus with 13 samples.

Results

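The cartilage collagens are 7 genes of the 12880 in a table of RNA-seq values from mouse embryonic limb buds, taken by symbol: Col2a1, Col11a1, Col11a2, Col27a1, Col9a1, Col9a2 and Col9a3. All 7 were listed. RNA was measured in 13 limb bud libraries in 4 groups. At E11.5 (E for embryonic day) there were 3 controls, Sox9fl/-, and 4 mutants, Sox9-/-, called Sox9null. At E12.5 there were 3 controls, Sox9fl/fl, and 3 mutants, Sox9fl/flPrx1CreER, called Sox9cKO. The E11.5 controls thus carry a Sox9 null allele beside a floxed allele, while the E12.5 controls carry 2 floxed alleles, and the ages differ in mutant allele too. Prx1CreER is a Cre recombinase driven by a limb mesenchyme promoter, so that cells of the limb bud outside that lineage are not expected to lose the gene in Sox9cKO. The sources used here do not give when the recombinase, which needs tamoxifen to act, was activated, or which part of Sox9 each allele lacks. The limb buds hold many cell types, and in such bulk samples fewer cells of a type and less RNA per cell cannot be told apart. The study's title asks whether SOX9 is needed for marker genes to come on when cartilage formation begins.

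A collagen molecule is a rope of 3 chains, each built of Gly-X-Y triplets, with glycine at every turn where the chains meet. Type II collagen, 3 copies of the Col2a1 chain, makes the bulk of the thin fibrils of cartilage. Type XI collagen, from Col11a1, Col11a2 and a further chain made from the Col2a1 gene, lies within those fibrils and limits their width. Type IX collagen, 1 chain each from Col9a1, Col9a2 and Col9a3, does not form fibrils itself but decorates their surface and links them to other matrix proteins. Type XXVII, from Col27a1, is a fibrillar collagen with a shorter triple helix found in cartilage. SOX9 is the transcription factor that marks cartilage precursors, and it is known to act on several of these genes together with SOX5 and SOX6.

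The genes share an exon structure that sets them apart from most coding genes. In the GENCODE M21 annotation of the GRCm38 assembly (the same as mm10), 24 of 52 inner coding exons of Col2a1 are exactly 54 bases long, 31 of 65 in Col11a1, 31 of 64 in Col11a2, 33 of 59 in Col27a1, 14 of 36 in Col9a1, 14 of 30 in Col9a2 and 14 of 30 in Col9a3. Over 105244 inner coding exons of the protein-coding genes in the table, 0.732% have that length. Other collagen genes were not examined separately for this trait. An exon of 54 bases encodes 6 whole Gly-X-Y triplets. Because these genes share the repeat, 1 such exon of each is shown with the glycine codons in capitals, coding strand.
Col2a1 exon 10, chr15:97996489-97996542 (minus strand): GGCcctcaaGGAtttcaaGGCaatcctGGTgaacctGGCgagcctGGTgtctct
Col11a1 exon 15, chr3:114108281-114108334 (plus strand): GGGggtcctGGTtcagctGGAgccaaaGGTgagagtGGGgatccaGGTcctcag
Col11a2 exon 15, chr17:34051480-34051533 (plus strand): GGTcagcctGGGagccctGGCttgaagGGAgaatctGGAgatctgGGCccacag
Col27a1 exon 7, chr4:63245069-63245122 (plus strand): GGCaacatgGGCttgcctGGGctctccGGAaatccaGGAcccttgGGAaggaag
Col9a1 exon 18, chr1:24210373-24210426 (plus strand): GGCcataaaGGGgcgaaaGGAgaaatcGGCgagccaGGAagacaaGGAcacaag
Col9a2 exon 12, chr4:121045141-121045194 (plus strand): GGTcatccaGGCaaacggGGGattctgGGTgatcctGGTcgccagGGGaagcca
Col9a3 exon 13, chr2:180605727-180605780 (plus strand): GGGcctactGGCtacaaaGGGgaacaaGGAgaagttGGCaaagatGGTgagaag
Each exon shown was picked as the first of 54 bases lying whole within the gene's longest run of glycine codons, in step with it. By that choice each line opens with a glycine codon and repeats one every 9 bases, while the bases between differ from gene to gene. The length of the unbroken repeat divides the genes in the way their proteins do. The longest run of glycine codons was 339 triplets in Col2a1, 338 in Col11a1, 338 in Col11a2 and 217 in Col27a1. In each of the 3 type IX genes it was 113, within 5 separate runs of 10 or more, which is the interrupted helix of a collagen that bends on the fibril surface. Col27a1 had 3 such runs, and Col2a1, Col11a1 and Col11a2 had 2 each, so a broken repeat is not particular to type IX.

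The 7 genes lie on 6 chromosomes. In mm10 coordinates Col2a1 (ENSMUSG00000022483) spans chr15:97975602-98004695 on the minus strand and the others lie on the plus strand. Col11a1 (ENSMUSG00000027966) is at chr3:114030540-114220718, Col11a2 (ENSMUSG00000024330) at chr17:34039437-34066685 and Col27a1 (ENSMUSG00000045672) at chr4:63214004-63334991. Col9a1 (ENSMUSG00000026147) is at chr1:24177610-24252684, Col9a2 (ENSMUSG00000028626) at chr4:121039385-121055322 and Col9a3 (ENSMUSG00000027570) at chr2:180597790-180622189. Only Col27a1 and Col9a2 share a chromosome, and they are far apart on it.

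The RefSeq promoter table (GRCm38.p6, 250 bases before to 50 after each start) held 6 windows for 5 of the genes; Col9a1 had a pair of starts. Col2a1 and Col9a3 had no entry. The bases before the start are shown for Col11a2, the gene farthest below control at E12.5, and for Col27a1, the nearest to control at E11.5. The Col27a1 window lies between exons of the longer GENCODE gene model. Capitals mark GC boxes (GGGCGG) and a TATA box (TATAAA), searched on both strands.
Col11a2, chr17:34038888-34039137 (plus strand): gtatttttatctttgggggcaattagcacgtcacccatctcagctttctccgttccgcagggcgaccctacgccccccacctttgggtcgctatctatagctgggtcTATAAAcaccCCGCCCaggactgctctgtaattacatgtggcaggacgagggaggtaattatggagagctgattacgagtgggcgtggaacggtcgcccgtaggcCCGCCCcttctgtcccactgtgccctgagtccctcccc
Col27a1, chr4:63215162-63215411 (plus strand): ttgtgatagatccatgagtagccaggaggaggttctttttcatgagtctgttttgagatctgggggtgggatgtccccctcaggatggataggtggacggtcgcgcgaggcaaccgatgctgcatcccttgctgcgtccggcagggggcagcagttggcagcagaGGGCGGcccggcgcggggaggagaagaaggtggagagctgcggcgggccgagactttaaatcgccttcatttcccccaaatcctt
Col11a2 held a TATA box and 2 GC boxes here, which did not overlap, and Col27a1 held 1 GC box. Over the full windows of 300 bases, 35.7% of 32851 promoters held a GC box and 13.6% the TATA box. A SOX core motif (ACAATG or ACAAAG, either strand) was in 28.6% of promoters and in none of the 6 windows of these genes. That says only that those letters are not in these windows, and the known SOX9 enhancer of Col2a1 lies in an intron.

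Sox9 itself was called lower in Sox9null (log2 difference -0.76, limma adjusted p = 0.0360) and not in Sox9cKO (-0.18, adjusted p = 1). Its level was 40.7 ± 7.47 RPKM (SD, n = 3) in E11.5 controls and 23.5 ± 2.35 RPKM (n = 4) in Sox9null, and 36.2 ± 1.22 against 32.0 ± 3.23 RPKM (n = 3 each) at E12.5. RPKM here is the authors' read count normalized to gene length and library size, so that levels of different genes can be compared. The Sox9 call held in 9 of 24 alternative fits (adjusted p up to 0.523), and reads outside the deleted part of the gene do not check the deletion. Limb mesenchyme genes marked every library: Prrx1 was 37.7 to 51.7 RPKM and Msx1 49.4 to 61.2 RPKM. The hindlimb gene Tbx4 was 38.2 to 54.2 RPKM. The E11.5 libraries fell into 2 sets by their correlation across genes, controls 1 and 3 with Sox9null 3 and 4, and control 2 with Sox9null 1 and 2 (r = 0.979 to 0.989 within a set and 0.938 to 0.966 between sets). The labels say nothing of what the sets are. Read depth per library was not known, and precision was judged from the spread between libraries; the file header gives 3 or 4 embryos for each group. Y-linked RNA was present in 3 of 3 E12.5 controls and 1 of 3 Sox9cKO libraries, and in 1 control and 1 Sox9null library at E11.5.

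In E11.5 Sox9null limb buds, the type IX chain genes Col9a3 and Col9a2 fell, to 17.1% and 29.9% of the control mean. Col2a1 was at 53.6% and Col11a2 at 42.9% without passing the test, and Col9a1, Col11a1 and Col27a1 stayed at 75.1%, 85.3% and 96.2%. Differences were tested with limma on log2(RPKM + 1), a scale that understates the change of low genes. A call is a Benjamini-Hochberg adjusted p, over all 12880 genes, under 0.05. By that rule 2 of 7 genes were called lower and 0 higher, where 0.0543% of all genes were called lower and none higher. All 7 differences were below 0, with a median log2 difference of -0.83 against 0.01 over all genes, and 43.2% of all genes were below 0. Without Sox9null library 4 the Col27a1 difference was 0.00 and no longer below 0. At an unadjusted p under 0.05, 5 of the 7 were lower (all but Col11a1 and Col27a1), as were 1.05% of all genes.

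**Figure D1:**
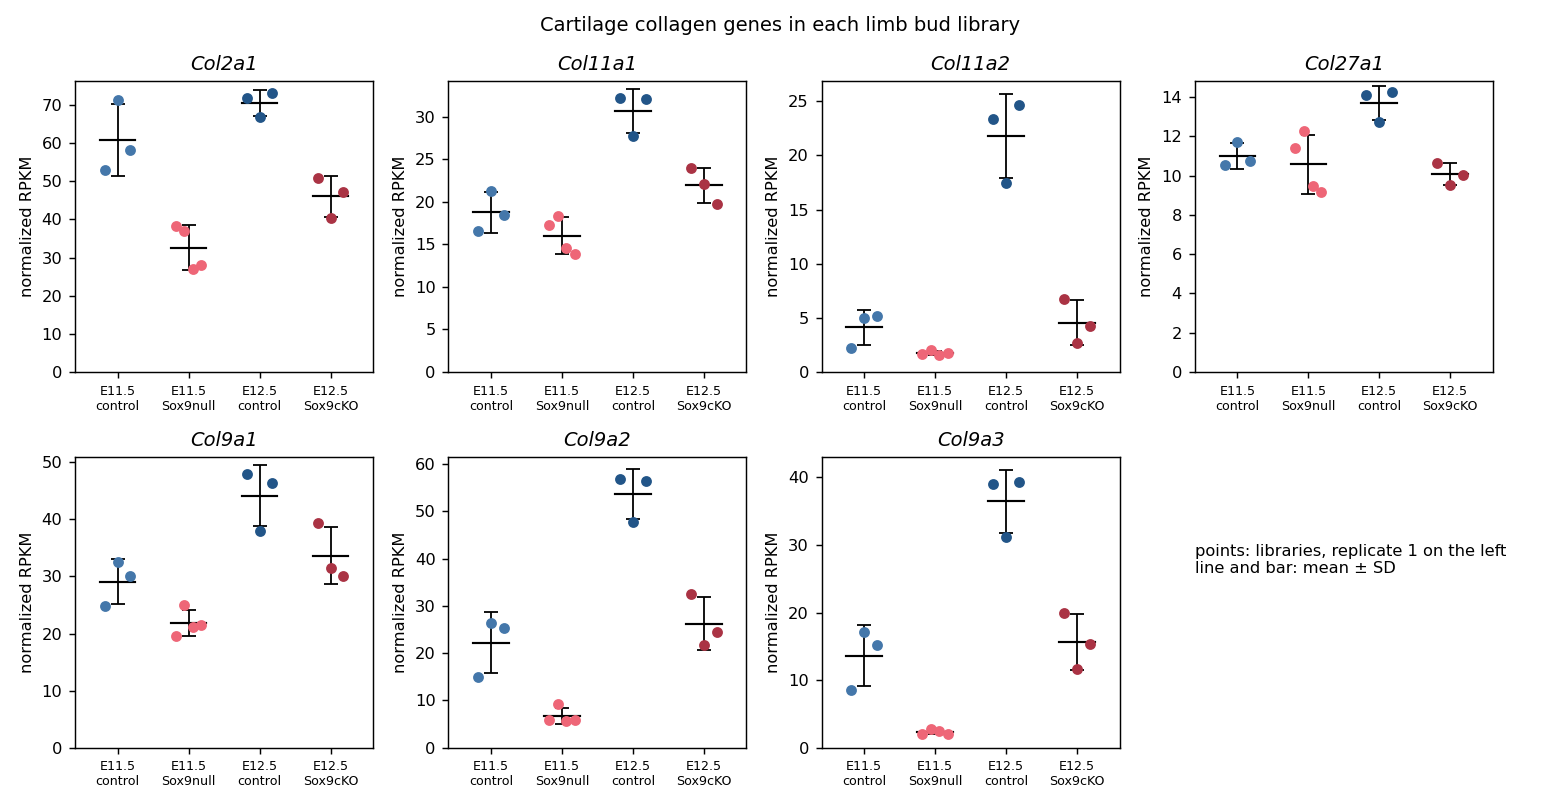
Normalized RPKM (vertical axes, from 0) of each cartilage collagen gene in the 13 limb bud libraries by group; points are libraries, lines and bars the mean ± SD. The E12.5 controls hold the highest points of Col9a2, Col9a3 and Col11a2, and the Sox9null points of these genes lie lowest.

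Col9a3 encodes the α3 chain of type IX. Its level was 8.60, 17.1 and 15.2 RPKM in the E11.5 controls, against 2.08, 2.78, 2.42 and 2.04 RPKM in Sox9null. Each Sox9null library was below each control by a wide gap, and control 1 was the lowest control. The log2 difference was -2.09 (95% interval -2.56 to -1.63, limma adjusted p = 0.00653). It was -1.95 within the set of 4 libraries and -2.41 within the set of 3. The call held in 23 of 24 alternative fits (adjusted p 6.04e-04 to 0.115), and was lost in a fit of both groups alone.

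Col9a2, for the α2 chain of the same molecule, showed the same picture at a higher level. Controls stood at 14.9, 26.5 and 25.4 RPKM, mutants at 5.80, 9.21, 5.73 and 5.90 RPKM. Mutants and controls did not overlap, and Sox9null 2 stood above the other 3 mutants. The log2 difference was -1.58 (95% interval -2.04 to -1.13, limma adjusted p = 0.0184), with -1.59 and -1.72 within the library sets. The call was lost without control 2 (adjusted p = 0.0662), control 3 (0.164), Sox9null 1 (0.0711), Sox9null 3 (0.0537) or Sox9null 4 (0.0729), and in a fit of both groups alone (0.372). Over 24 alternatives the log2 difference was -1.84 to -1.44.

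Col9a1, the remaining type IX chain, was nearer to control. Its values were 24.8 to 32.5 RPKM in controls and 19.6 to 25.1 RPKM in Sox9null, and the groups overlapped. The log2 difference was -0.39 (95% interval -0.66 to -0.13, limma adjusted p = 1). It was -0.34 and -0.53 within the library sets.

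Col2a1, the main cartilage collagen gene, had the highest level of the 7 in every group. At E11.5 it was at 52.9, 71.3 and 58.2 RPKM in controls, and in Sox9null at 38.4, 36.8, 27.0 and 28.1 RPKM. No mutant reached the lowest control, and the mutants fell into a higher and a lower pair that match the library sets. The log2 difference was -0.89 (95% interval -1.18 to -0.59), with a limma adjusted p of 0.0537, just outside the threshold. Within the sets it was -0.98 and -0.91. A model that also fits the set gave -0.95 and a call (limma adjusted p = 2.48e-04), 1 that fits embryo sex gave -0.90 and a call (0.0400), and the other 22 alternatives gave none (up to 0.680). The set was drawn from these same values, so the call of that model is not independent of them.

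None of the type XI and XXVII genes was called at this age. Col11a2, encoding the α2 chain of type XI, had 2.24, 4.95 and 5.17 RPKM in controls and 1.62, 2.04, 1.60 and 1.803 RPKM in Sox9null. The groups did not overlap, but control 1 was close above the highest mutant, and the log2 difference of -0.83 (95% interval -1.40 to -0.27) was not called (limma adjusted p = 1). Within the library sets it was -0.73 and -1.07. Col11a1, its partner chain, was 16.5 to 21.3 RPKM in controls and 13.8 to 18.4 RPKM in Sox9null, with a log2 difference of -0.22 (95% interval -0.46 to 0.03). Col27a1 was 10.5 to 11.7 RPKM in controls and 9.17 to 12.3 RPKM in Sox9null, a log2 difference of -0.06 (95% interval -0.26 to 0.14). For both genes the groups overlapped and the limma adjusted p was 1. Within the sets Col11a1 was -0.28 and -0.24, and Col27a1 -0.17 and 0.01. In all, 4 of the 7 genes had every mutant below every control, where 1.06% of all genes did.

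In E12.5 Sox9cKO limb buds Col11a2 fell to 20.9% of the control mean. Col9a3 was at 43.0% and Col9a2 at 49.0%, Col2a1 at 65.3%, Col11a1 at 71.5%, Col27a1 at 73.6% and Col9a1 at 76.3%. Only Col11a2 was called, 1 of 7 lower where 0.14% of all genes were, and 0 of 7 higher where 0.0543% were. All 7 differences were below 0 (median log2 difference -0.61 against 0.01 over all genes). Each was lower at an unadjusted limma p under 0.05, as were 3.63% of all genes. In 6 of the 7, all but Col9a1, every Sox9cKO library was below every control, where 8.5% of all genes showed that.

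**Figure D2:**
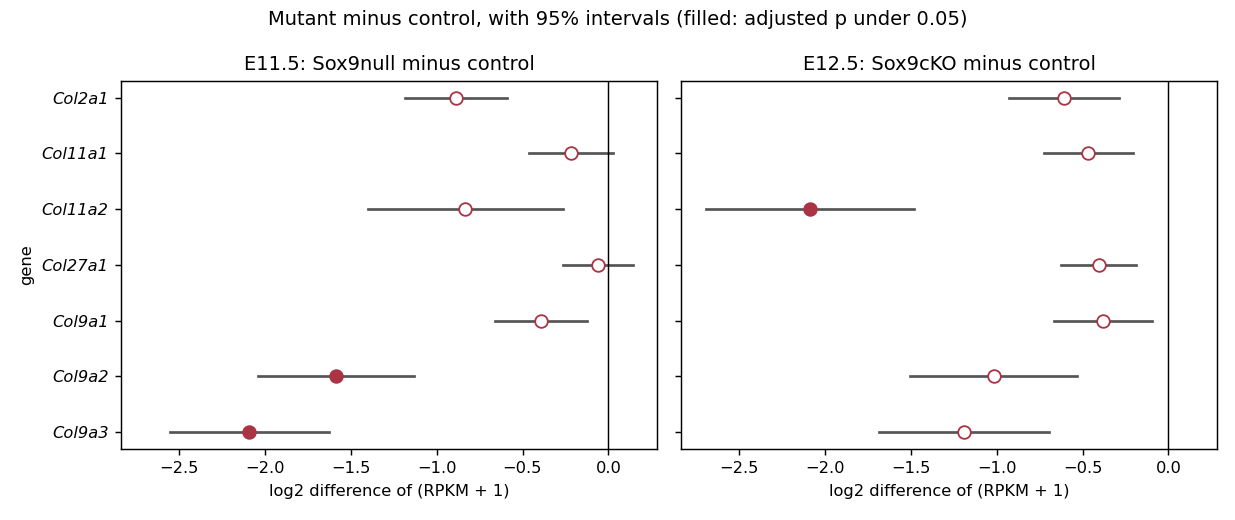
Log2 difference of RPKM + 1, mutant minus control (horizontal axes), for each collagen gene at E11.5 and E12.5; points are limma estimates with 95% intervals, filled where the adjusted p was under 0.05. Col9a3 and Col9a2 lie farthest left at E11.5 and Col11a2 at E12.5, and no estimate lies above 0.

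Col11a2 had 23.4, 17.4 and 24.6 RPKM in the E12.5 controls and 6.77, 2.69 and 4.21 RPKM in Sox9cKO. The highest mutant was far below the lowest control, and Sox9cKO 2 was the lowest mutant. The log2 difference was -2.09 (95% interval -2.69 to -1.48, limma adjusted p = 0.00844). The call was lost without control 1 (adjusted p = 0.0610), control 3 (0.0646) or Sox9cKO 3 (0.0572), and in a fit of both groups alone (0.0674). Over 24 alternatives the log2 difference was -2.36 to -1.83, with adjusted p from 0.00267. Fitting embryo sex gave -2.32 (adjusted p = 0.0163).

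The other type XI gene, Col11a1, was 27.7 to 32.2 RPKM in controls and 19.8 to 23.9 RPKM in Sox9cKO, without overlap. Its log2 difference was -0.47 (95% interval -0.73 to -0.21, limma adjusted p = 0.235), well short of that of Col11a2. Col2a1 had 71.9, 66.8 and 73.1 RPKM in controls, while Sox9cKO had 50.9, 40.3 and 47.1 RPKM. Again no library of one group reached the other, and the log2 difference was -0.61 (95% interval -0.93 to -0.29, limma adjusted p = 0.186). Col27a1 was 12.7 to 14.3 RPKM in controls and 9.53 to 10.7 RPKM in Sox9cKO, with a log2 difference of -0.41 (95% interval -0.62 to -0.19, limma adjusted p = 0.194).

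Of the type IX genes, Col9a3 had 39.0, 31.1 and 39.3 RPKM in E12.5 controls and 19.95, 11.7 and 15.4 RPKM in Sox9cKO. Col9a2 had 56.9, 47.7 and 56.5 RPKM in controls and 32.5, 21.8 and 24.6 RPKM in Sox9cKO. In both genes Sox9cKO 1 was the highest mutant and control 2 the lowest control, and the groups stayed apart. The log2 differences were -1.19 (95% interval -1.69 to -0.70, limma adjusted p = 0.0756) for Col9a3 and -1.02 (95% interval -1.50 to -0.53, limma adjusted p = 0.125) for Col9a2. Without E11.5 control 1, whose only part is in the shared estimate of the spread, Col9a3 and Col9a2 were called (adjusted p = 0.0167 and 0.0410), and without Sox9cKO 1 Col9a3 was (0.0450). Their adjusted p ranged from 0.0167 to 0.411 and from 0.0410 to 0.519 over the alternatives. Col9a1 was 38.0 to 48.0 RPKM in controls and 30.1 to 39.4 RPKM in Sox9cKO, where the groups overlapped (log2 difference -0.38, 95% interval -0.67 to -0.10, limma adjusted p = 0.537). In a model that also fits the E11.5 library set, 5 of the 7 genes were called lower at E12.5: Col2a1, Col11a1, Col11a2, Col27a1 and Col9a3. That set was drawn from these same values, and no E12.5 library differs in it. It enters here only through the spread, and the median log2 difference of the 7 genes stayed at -0.61. These added calls are therefore no further evidence on the E12.5 libraries. When embryo sex was fitted Col11a2 alone was called, with adjusted p of 0.0539 for Col9a2, 0.0591 for Col9a3 and 0.0599 for Col11a1.

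By the adjusted limma test of the difference between the mutant effects at the ages, 0 of the 7 genes were called, where 0.0311% of all genes were. The effects differed at an unadjusted limma p under 0.05 in 3 genes, against 3.05% of all genes. The Col11a2 effect was lower at E12.5 by 1.26 on the log2 scale (95% interval -2.09 to -0.43) and that of Col27a1 by 0.35 (95% interval -0.64 to -0.05). The Col9a3 effect was smaller at E12.5, with a difference of 0.90 (95% interval 0.22 to 1.58). For Col9a2 the difference was 0.57 (95% interval -0.10 to 1.23) and for Col2a1 0.28 (95% interval -0.16 to 0.71). All 7 limma adjusted p were 1. Age, mutant allele and control genotype change together between these comparisons and cannot be told apart.

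From E11.5 to E12.5 the control limb buds gained collagen RNA very unevenly. Col11a2 rose 5.30-fold in RPKM, Col9a3 2.67-fold, Col9a2 2.41-fold, Col11a1 1.63-fold and Col9a1 1.52-fold. Col2a1 was at 1.16 and Col27a1 at 1.24 times the E11.5 level without passing the test. In limma 5 of 7 were called higher, where 16.5% of all genes were, with log2 differences of 2.20 for Col11a2, 1.40 for Col9a3, 1.27 for Col9a2, 0.68 for Col11a1 and 0.59 for Col9a1 (adjusted p 6.64e-04 to 0.00909). Each of these calls held in 24 of 24 alternatives. The log2 differences of Col2a1 (0.22, 95% interval -0.10 to 0.54) and Col27a1 (0.29, 95% interval 0.07 to 0.51) had limma adjusted p of 0.293 and 0.0551. Col27a1 was called without any 1 of the 4 Sox9null libraries (adjusted p 0.0336 to 0.0495), which enter only through the spread. In 6 of the 7 genes, all but Col2a1, each E12.5 control was above each E11.5 control, where 32.6% of all genes showed that. The controls of the ages differ in genotype as well as age.

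The mutant limb buds of the later age also had more collagen RNA than those of the earlier age. Col9a3 was 6.73-fold, Col9a2 3.95-fold, Col11a2 2.58-fold, Col9a1 1.54-fold, Col2a1 1.42-fold and Col11a1 1.37-fold higher in Sox9cKO than in Sox9null, and these 6 of 7 were called (14.5% of all genes were called higher). In 6 of 7 genes every Sox9cKO library was above every Sox9null library, as in 23.7% of all genes. Col27a1 was at 10.1 ± 0.564 RPKM (n = 3) in Sox9cKO and 10.6 ± 1.501 RPKM (n = 4) in Sox9null (log2 difference -0.06, limma adjusted p = 0.683). Only Col9a1, Col9a2 and Col9a3 kept the call in each of the 24 alternatives. Those of Col11a2 and Col2a1 were lost without Sox9cKO 1 (adjusted p = 0.118 and 0.109) or Sox9cKO 3 (0.0646 and 0.0749), that of Col11a1 without Sox9cKO 1 (0.0894) or Sox9cKO 2 (0.0799), and that of Col11a2 also without Sox9null 1 (0.0546). These comparisons share libraries with the comparisons of mutants and controls, so they are not independent of them.

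Both comparisons over age depend on how libraries are scaled to each other. In the deposited scaling 2126 genes were called higher and 668 lower in the controls, and 1865 and 674 in the mutants. With each library set to the same median, which moved the median of all genes in the controls by -0.10 on the log2 scale, the counts were 1364 higher and 1935 lower in the controls and 1152 and 1393 in the mutants. With quantile normalization they were 1477 and 1187, and 1336 and 1066. The 5 collagen genes called in controls were called under each scaling. In mutants 4 of the 7 were called under either alternative, but not the same 4. Col9a1, Col9a2 and Col9a3 were called under both, Col11a2 only at one median and Col2a1 only with quantile normalization.

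The summed RPKM of the 7 genes gives the scale of these changes. It was 160 ± 27.7 (SD, n = 3) in E11.5 controls, 91.8 ± 11.9 (n = 4) in Sox9null, 271 ± 25.6 (n = 3) in E12.5 controls and 158 ± 23.2 (n = 3) in Sox9cKO. The ranges of the Sox9cKO and E11.5 control sums, 139 to 184 and 130 to 185, overlapped. The genes took unequal shares of it. Col11a2 took 8.00 ± 0.717% of the sum in E12.5 controls and 2.80 ± 0.876% in Sox9cKO, and 2.52 ± 0.736% and 1.94 ± 0.207% in E11.5 controls and Sox9null. Col9a3 took 8.38 ± 1.54% in E11.5 controls, 2.55 ± 0.328% in Sox9null, 13.4 ± 0.464% in E12.5 controls and 9.80 ± 1.28% in Sox9cKO. Col27a1, whose own level moved least, took 6.99 ± 0.938% in E11.5 controls and 11.51 ± 0.302% in Sox9null.

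**Figure D3:**
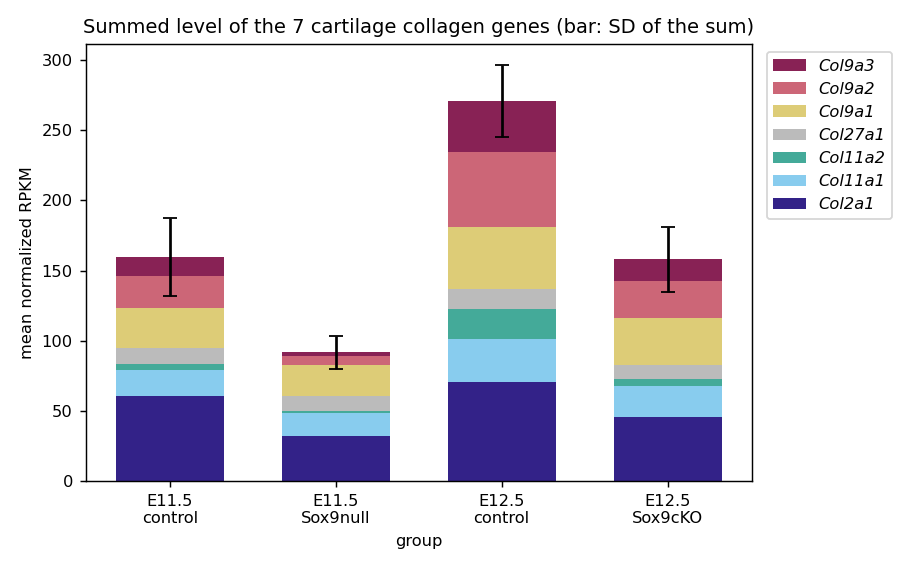
Mean normalized RPKM of the 7 cartilage collagen genes stacked by group (vertical axis, from 0); bars at the top are the SD of the summed level. The sum is 160 and 91.8 RPKM in the E11.5 groups and 271 and 158 RPKM in the E12.5 groups, and the Col11a2 segment is taller in the E12.5 controls than in the other 3 groups.

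The order of levels changed below the top place. Col2a1 came highest in each group, with no overlap with the next gene. In E11.5 controls Col9a1 (29.1 ± 3.96 RPKM), Col9a2 (22.3 ± 6.41), Col11a1 (18.8 ± 2.42), Col9a3 (13.6 ± 4.46) and Col27a1 (11.0 ± 0.648) followed, each overlapping its neighbour, and Col11a2 (4.12 ± 1.63) was lowest without overlap. In Sox9null the order was Col9a1 (21.9 ± 2.29), Col11a1 (16.01 ± 2.19), Col27a1 (10.6 ± 1.501), Col9a2 (6.66 ± 1.70), Col9a3 (2.33 ± 0.345) and Col11a2 (1.77 ± 0.204), where only Col27a1 with Col9a2, and Col9a3 with Col11a2, overlapped. In E12.5 controls Col9a2 (53.7 ± 5.21), Col9a1 (44.1 ± 5.35), Col9a3 (36.5 ± 4.63) and Col11a1 (30.7 ± 2.56) overlapped their neighbours in turn, and Col11a2 (21.8 ± 3.86) and Col27a1 (13.7 ± 0.853) stood apart below. In Sox9cKO Col9a1 (33.7 ± 5.06), Col9a2 (26.3 ± 5.57), Col11a1 (21.9 ± 2.09) and Col9a3 (15.7 ± 4.15) overlapped in turn, and Col27a1 (10.1 ± 0.564) and Col11a2 (4.56 ± 2.07) followed apart. Col11a2 was thus below Col27a1 in each group but the E12.5 controls. In the authors' deposited table the adjusted p-value for differences among the 4 groups was 2.98e-04 for Col9a3, 6.83e-04 for Col9a2, 0.00168 for Col11a2, 0.00422 for Col2a1, 0.00518 for Col11a1, 0.00568 for Col9a1 and 0.0573 for Col27a1.

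Chains of one molecule are used in fixed proportion in the protein, and their RNA ratios were compared within libraries. The RPKM ratio cancels what scales both genes of a library alike. The tested log2 ratio of RPKM + 1 does so only in part where a gene is low. For type IX the RPKM ratio of Col9a1 to Col9a2 was 1.18 to 1.66 in E11.5 controls and 2.72 to 3.70 in Sox9null, and 0.80 to 0.84 in E12.5 controls and 1.21 to 1.45 in Sox9cKO. The mutants lay above the controls at both ages without overlap. The log2 ratio of RPKM + 1 differed by 1.19 at E11.5 (exact two-sided permutation p = 0.0571, the smallest that 35 splits of 3 against 4 libraries allow) and by 0.63 at E12.5 (exact permutation p = 0.1, the smallest of 20 splits of 3 against 3). Adjusted over the 10 ratio tests both were 0.125, and at these sizes no ratio test could pass 0.05.

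The Col9a3 to Col9a2 ratio was 0.58 to 0.65 in E11.5 controls and 0.30 to 0.42 in Sox9null, and 0.65 to 0.69 and 0.54 to 0.63 at E12.5. Each mutant library was below each control at both ages (log2 difference -0.51 and -0.17, exact permutation p = 0.0571 and 0.1). The Col9a2 to Col2a1 ratio, surface chain to main fibril chain, was 0.28 to 0.44 in E11.5 controls and 0.15 to 0.25 in Sox9null, and 0.71 to 0.79 and 0.52 to 0.64 at E12.5. Mutants were again below controls without overlap (log2 difference -0.70 and -0.41, exact permutation p = 0.0571 and 0.1).

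For type XI the Col11a2 to Col11a1 ratio was 0.14 to 0.28 in E11.5 controls and 0.63 to 0.77 in E12.5 controls, with no test between them. It was 0.09 to 0.13 in Sox9null and 0.12 to 0.28 in Sox9cKO. At E12.5 the groups were far apart (log2 difference -1.62, exact permutation p = 0.1), and the Sox9cKO range overlapped that of the E11.5 controls. At E11.5 the log2 difference was -0.61 (exact permutation p = 0.114, adjusted 0.127) and the groups overlapped in the log2 ratio of RPKM + 1. The Col11a1 to Col2a1 ratio was 0.30 to 0.32 in E11.5 controls and 0.45 to 0.54 in Sox9null (log2 difference 0.67, exact permutation p = 0.0571), while the E12.5 groups, 0.41 to 0.45 and 0.42 to 0.55, overlapped (log2 difference 0.14, exact permutation p = 0.3).

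**Figure D4:**
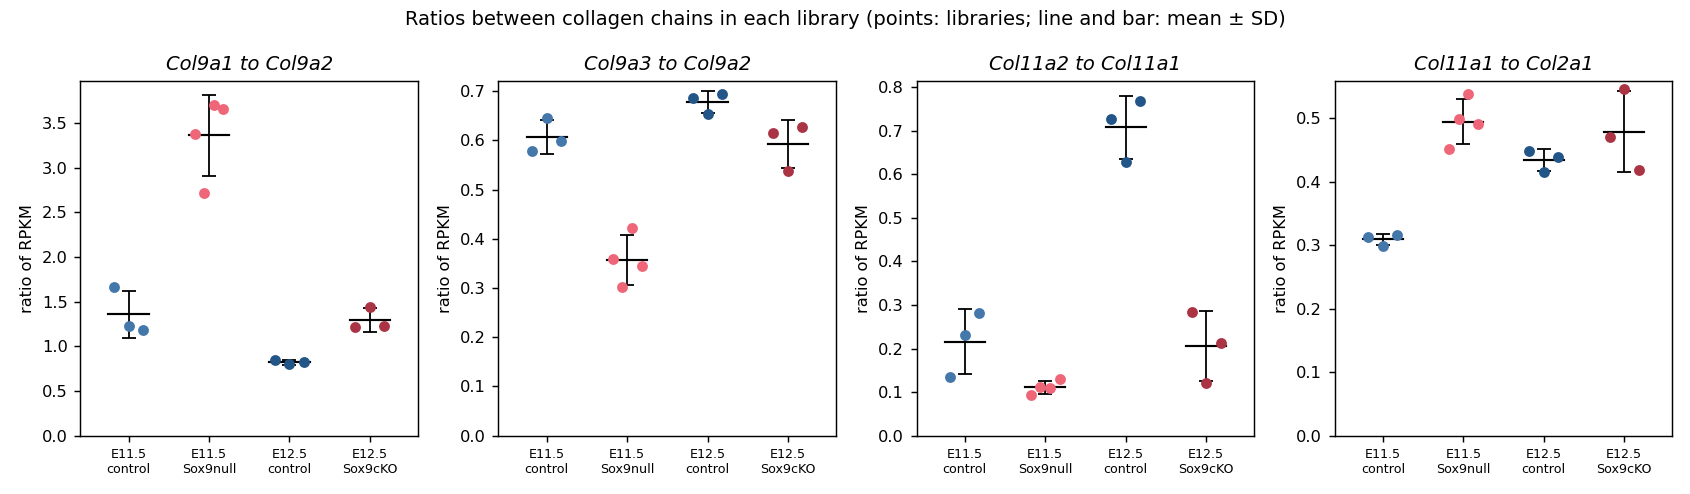
RPKM ratio between chains (vertical axes, from 0) in each library by group, for 4 of the 5 pairs compared; points are libraries, lines and bars the mean ± SD. The Col9a1 to Col9a2 ratio is highest in Sox9null at 2.72 to 3.70, and the Col11a2 to Col11a1 ratio is highest in the E12.5 controls at 0.63 to 0.77.

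Of the enzymes that build collagen, 1 was called in the mutants. Of 19 genes of collagen modification in the endoplasmic reticulum (prolyl and lysyl hydroxylases, the chaperone Serpinh1 and others), 0 were called at E11.5 (0 at an unadjusted limma p under 0.05) and 1 at E12.5 (1 unadjusted). That gene was Glt25d2, which encodes a galactosyltransferase acting on hydroxylysine, at 6.43, 4.82 and 7.12 RPKM in E12.5 controls and 3.69, 3.05 and 3.07 RPKM in Sox9cKO (log2 difference -0.73, limma adjusted p = 0.0433). The call held in 8 of 23 alternatives (adjusted p up to 0.299) and was lost without any 1 of 10 libraries, among them control 1 (0.299) and Sox9cKO 3 (0.224). The list's median log2 difference was 0.00 at E11.5 and -0.09 at E12.5. In the controls over age 11 of 19 were called higher, where 16.5% of all genes were, and 0 lower. Of 13 measured genes of export, processing and cross-linking, 0 were called at either age in the mutants (3 at an unadjusted limma p under 0.05 at E11.5 and 2 at E12.5) and 7 were called higher over age in the controls, against the same 16.5% of all genes, Lox, a cross-linking enzyme, most (log2 difference 1.43, limma adjusted p = 0.00140). Of all genes in the mutants, 0.0543% were called lower and 0 higher at E11.5, and 0.14% lower and 0.0543% higher at E12.5. At an unadjusted limma p under 0.05, 2.82% of all genes passed at E11.5 and 5.41% at E12.5.

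Of the proteins that bind cartilage fibrils, Matn1 and Acan fell in Sox9cKO. Of 8 measured, 0 were called at E11.5 (1 at an unadjusted limma p under 0.05) and 2 lower at E12.5 (5 lower unadjusted), where 0.14% of all genes were called lower and 3.63% were lower unadjusted. At E11.5, 0.0543% of all genes were called lower and 1.05% were lower unadjusted. All 8 were below 0 at E12.5 (median log2 difference -0.53). Matn1, a matrilin of cartilage, had 13.5, 5.07 and 23.1 RPKM in E12.5 controls and 0.963, 0.042 and 0.599 RPKM in Sox9cKO. Acan, the large aggregating proteoglycan, had 8.43, 3.25 and 10.5 RPKM in controls and 0.923, 0.091 and 0.225 RPKM in Sox9cKO. The log2 differences were -3.11 and -2.50 (limma adjusted p = 0.00687 and 0.00726), both farther from 0 than that of each collagen gene. Without E12.5 control 1 both calls were lost (adjusted p = 0.0515 and 0.0584), and without Sox9cKO 3 that of Acan (0.0534). In E11.5 controls Matn1 was 0.304 to 0.725 RPKM and Acan 0.065 to 0.502 RPKM, when Col2a1 was already above 50.

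None of the fibrillar collagens of other connective tissues was called in the mutants. Of 6 measured (Col1a1, Col1a2, Col3a1, Col5a1, Col5a2 and Col24a1), 0 passed at either age, also at an unadjusted limma p under 0.05, with median log2 differences of 0.01 and -0.08. Their summed RPKM was 206 ± 19.6 (n = 3), 209 ± 30.0 (n = 4), 210 ± 12.9 (n = 3) and 201 ± 16.8 (n = 3) in the 4 groups in order of age, controls before mutants. Col24a1, the closest relative of Col27a1, was 3.94 ± 0.509 RPKM in E12.5 controls and 3.32 ± 0.738 in Sox9cKO (log2 difference -0.20, limma adjusted p = 1). Of 6 measured collagen receptors, 0 were called by limma in the mutants at either age, also at an unadjusted p under 0.05. Of all genes, 0.0543% were called lower and 0 higher at E11.5, with 0.14% lower and 0.0543% higher at E12.5. At an unadjusted limma p under 0.05, 2.82% and 5.41% passed.

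The SOX genes that act with SOX9 were below control without being called. Sox5 was 7.45 ± 2.09 RPKM in E11.5 controls and 4.07 ± 0.717 in Sox9null (log2 difference -0.72, limma adjusted p = 0.416), and 9.15 ± 0.711 and 5.19 ± 0.982 at E12.5 (-0.73, 0.194). Sox6 was 8.84 ± 3.45 and 3.87 ± 0.460 at E11.5 (log2 difference -0.96, limma adjusted p = 0.416), and 20.2 ± 2.64 and 8.45 ± 2.33 at E12.5 (-1.19, 0.0830). Both genes were lower at an unadjusted limma p under 0.05 at each age. So were 1.05% of all genes at E11.5 and 3.63% at E12.5. Sox6 rose over age in the controls (log2 difference 1.16, limma adjusted p = 0.00562).

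Markers of other cell types moved with the mutants in part. Of all genes, 0.0543% were called lower and 0 higher at E11.5, 0.14% lower and 0.0543% higher at E12.5, and 2.82% and 5.41% passed unadjusted in either direction. All 11 measured erythroid genes were above 0 at both ages (median log2 difference 0.35 and 0.64). Of these 0 were called at E11.5 (6 at an unadjusted limma p under 0.05) and 1 at E12.5 (8 unadjusted), Rhag, part of a red cell membrane complex (0.77, limma adjusted p = 0.0375). That call held in 13 of 23 alternatives and was lost without any 1 of the 6 E12.5 libraries (adjusted p 0.0678 to 0.257). Their summed RPKM was 814 to 930 in E11.5 controls, 835 to 1462 in Sox9null, 621 to 677 in E12.5 controls and 861 to 1064 in Sox9cKO. None of these genes was at 0 in any library, and their part in the collagen differences was not tested. Of 10 endothelial genes all were above 0 at both ages (summed RPKM 148 to 165, 158 to 187, 170 to 181 and 181 to 192 in the same order), and 0 were called (1 unadjusted at E11.5 and 0 at E12.5). Skeletal muscle genes, 9 measured, summed to 170 to 207 RPKM in E12.5 controls and 120 to 176 in Sox9cKO, with 7 of 9 below 0 and 0 called (2 unadjusted). Both measured nerve and Schwann cell genes, Sox10 and Erbb3, were below 0 at both ages without being called, 1 of them unadjusted at E11.5 and both at E12.5. Their log2 differences were -0.81 and -0.27 at E11.5 and -0.78 and -0.44 at E12.5, and their summed RPKM was 12.3 to 13.0, 7.52 to 11.47, 22.8 to 24.6 and 14.6 to 19.05 in the same order, without overlap between mutants and controls of an age. Of 5 tendon genes 4 were below 0 at E12.5 (median log2 difference -0.32, 0 called, 2 lower unadjusted), with sums of 125 to 135 RPKM in controls and 101 to 122 RPKM in Sox9cKO. Surface ectoderm genes, 10 measured, were all above 0 at E11.5 (sums 130 to 145 and 141 to 186 RPKM, 0 called, 1 higher unadjusted), and 8 were below 0 at E12.5 (169 to 180 and 140 to 165 RPKM, 0 called, 1 lower unadjusted). Of 8 macrophage genes 0 were called at either age (0 unadjusted at E11.5 and 1 lower at E12.5), and of 4 perichondrium and osteoblast genes 0 (1 higher and 1 lower). The part of these cells in the collagen differences was not tested. Of the cartilage markers outside the collagens, 8 measured, Lect1 was called lower at E11.5 (log2 difference -2.16, limma adjusted p = 0.00756), and Matn1, Acan and Mia1 at E12.5, where all 8 were below 0 (median log2 difference -1.86). Matn1 and Cytl1 were at 0 in at least 1 Sox9null library.

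Other genes shared the collagen profile over the 13 libraries. Likeness was measured as the root mean square difference between log2(RPKM + 1) profiles, each centred on its own mean, over 11845 genes. Nearest to the mean profile of the 7 collagens, whose own root mean square was 0.69, were Sema3d (0.17), Sox6 (0.18), Gal3st1 (0.20), Foxc1 (0.21), Enpp2 (0.21) and Fgfr3 (0.22). Sema3d had 7.60 ± 1.67 RPKM in E11.5 controls, 4.74 ± 0.781 in Sox9null, 18.9 ± 1.68 in E12.5 controls and 9.92 ± 1.64 in Sox9cKO. Nearest to single genes were Sox5 to Col2a1 (0.11), Bcl2 to Col11a1 (0.07), Fam101a to Col11a2 (0.23), Fbxl2 to Col27a1 (0.09), Ypel2 to Col9a1 (0.11), the collagen gene Col8a1 to Col9a2 (0.21) and Lect1 to Col9a3 (0.29). The root mean square of the single profiles themselves ran from 0.18 for Col27a1 to 1.34 for Col9a3. These distances therefore do not rank how close the matches are from gene to gene. The genes were chosen for this likeness, so their own mutant and age differences are no test. The libraries of a group share age and genotype, so the 13 points are not independent.

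Distances among the 7 genes did not follow the molecule types throughout. The smallest distance was between Col11a1 and Col9a1 (0.13), followed by Col11a1 and Col27a1 (0.24). Col9a2 and Col9a3, both of type IX, were each other's nearest at 0.28, whereas Col9a1 was 0.73 from Col9a2 and 0.98 from Col9a3. Col11a1 and Col11a2, chains of 1 molecule, were 0.84 apart, and Col11a2 was nearer to Col9a2 (0.48). The largest distance was between Col27a1 and Col9a3 (1.24). By this measure Col9a2, Col9a3 and Col11a2 were nearer to each other (0.28 to 0.59) than any of them to the other 4 genes (0.71 to 1.24). The profiles were not scaled, so a distance also reflects how far each gene moved over the libraries. The root mean square of the profile itself was 1.10 for Col9a2, 1.34 for Col9a3 and 1.16 for Col11a2. It was 0.47 for Col2a1, 0.36 for Col11a1, 0.18 for Col27a1 and 0.39 for Col9a1. Shared regulation was not tested.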

How the data were processed

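The authors deposited normalized RPKM values (reads normalized to gene length and library size) of 12880 genes with an average of at least 3 in 1 or more of the 4 groups, per the file headers. RNA was extracted with a column kit and libraries followed a standard Illumina protocol, per the labels' protocols. CASAVA 1.8 and mm10 are named in the submitters' processing notes. The aligner, the counting and the between-library scaling are not stated there. The adjusted p-values of the authors' deposited table compare the 4 groups, per the file headers; 8 columns of their means and SDs were not used.

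From these values log2(RPKM + 1) was fitted with limma 3.58.1 in R 4.3.3 (trended, robust, two-sided) as 4 group means over 13 libraries. Benjamini-Hochberg adjustment ran over all genes, with a threshold of 0.05 and 5 comparisons. A filter of 1 RPKM in 3 libraries removed 0 genes. Chain ratios were tested with exact two-sided permutation over libraries (scipy 1.17.1). The limma fit was tested on simulated data, for the comparison of E11.5 Sox9null with control. Single-read steps were not recovered from low values, so no count model was run. No pair of libraries was identical.

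The 7 genes and all gene lists were chosen with earlier results of these data known. Genes named are these 7, Sox9, list members, the 6 genes nearest the mean centred profile and 1 nearest to each collagen gene, predicted genes left out. Of 12880 identifiers, 12715 matched the GENCODE M21 annotation. Alternatives were the pseudocount, filters, scaling, variance model, replicate block, library set, sex, separate fits and leaving out each library.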

Additional observations from a re-analysis of the deposited data

Results flagged for a closer look

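Col9a2 was the 1 of 13 quantities examined over the 4 E11.5 Sox9null libraries in which a library stood far from the others. Library 2 had 9.21 RPKM and the other 3 had 5.73 to 5.90 RPKM, so that the gap took 0.951 of the group's whole range, above the critical ratio of 0.829 for 4 samples. Chance flags about 1 in 20 such groups. Without this library the log2 difference from control was -1.73 and called (limma adjusted p = 0.0184).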

How the results depend on the processing

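Each comparison was refitted under 24 alternatives, and the difference between the mutant effects under 23, since a fit of only the groups compared was not run for it. Acan, Matn1, Mia1, Glt25d2 and Rhag, whose mean is under 5 RPKM, have no value under that filter. Numbers of genes called depended on the setting. For all genes at E11.5 (7 called), the count was 13 with libraries rescaled to one median, 41 with the library set as a term and 0 with only the groups compared (limma, 241 unadjusted). At E12.5 (25 called) it was 9 with a mean of at least 5 RPKM, 57 with quantile normalization, 14 with the replicate block and 105 with the library set. For the difference between the mutant effects (4 called) it was 2 with either lower pseudocount, 0 with a mean of at least 5 RPKM (limma, 274 unadjusted) and 1 with the block. Over age, 5745 genes in controls (2794) and 4990 in mutants (2539) were called with the library set, and 924 in mutants with only the groups compared. Of the 7 collagens at E11.5 (2 called), 1 was called with the replicate block and 0 with only the groups compared (5 unadjusted in the main fit). At E12.5 (1 called), 2 were called with quantile normalization, 5 with the library set and 0 with the block or only the groups compared (7 unadjusted in the main fit). In mutants over age (6 called), 3 were called with the block and 3 with only the groups compared. Leaving out 1 library at a time gave 2 to 8 genes at E11.5, 9 to 47 at E12.5, 1 to 11 for the difference, 1381 to 3374 in controls and 708 to 2976 in mutants over age. For the 7 collagens it gave 1 to 2, 0 to 3, 0, 5 to 6 and 3 to 6 in the same order. The library set was drawn from these same values, and at E12.5 it enters only through the spread. The cause of these shifts was not tested.

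Replicate numbers did not pair the libraries: deviations of same-numbered libraries correlated at -0.44, 0.64 and 0.44 at E11.5 and 0.17, 0.03 and -0.12 at E12.5. The replicate block therefore served only as an alternative, and under it Col9a2 at E11.5 (limma adjusted p = 0.237) and Col11a2 at E12.5 (0.0626) lost the call. Signs turned only for values close to 0. The Col9a1 difference between the mutant effects was -0.066 with quantile normalization, -0.10 with sex as a term and -0.11 to 0.12 when 1 library was left out. The Col27a1 difference at E11.5 was 0.00014 with the replicate block and -0.13 to 0.00014 when 1 library was left out. In mutants over age it was 0.064 with the library set and -0.12 to 0.012 when 1 library was left out. The chain ratios kept their direction under each alternative run for them. At E11.5, where Col9a3 and Col11a2 were low in Sox9null, the size depended on the setting. The log2 difference was -0.74 to -0.42 for Col9a3 to Col9a2 and -0.86 to -0.44 for Col11a2 to Col11a1. Depth per library is not known, and a low gene such as Col11a2 in Sox9null cannot be given a counting error.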

Other observations

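Within a group, the 7 collagen genes tended to be high or low in the same library. Among the E11.5 controls, library 1 was lowest for 7 of 7 genes and library 2 highest for 6, and Sox9 was also lowest in library 1 (35.8 RPKM) and highest in library 2 (49.3 RPKM). In Sox9null, library 2 was highest for 6 of 7 genes, and its Sox9 level was the highest at 25.7 RPKM. Of the E12.5 controls, library 2 was lowest for 7 of 7 genes and lowest for Sox9 (35.2 RPKM). In Sox9cKO, library 1 was highest for 7 of 7 genes and for Sox9 (35.1 RPKM), and library 2 was lowest for 5 genes and for Sox9 (28.7 RPKM). Sox9 did not go with the collagens in every library. Sox9null 1 had the lowest Sox9 level of its group (20.6 RPKM) and a collagen sum of 96.2 RPKM, and was lowest for 1 gene, while Sox9null 3 had 25.04 RPKM of Sox9, the lowest sum at 81.9 RPKM and the lowest level of 3 genes. Of the E12.5 controls, library 3 was highest for 4 genes and library 1 for 3, and Sox9 was highest in library 1 (37.5 RPKM). Such orders were not particular to the collagens. Dcn, Kera and Actc1 were also lowest in E11.5 control 1 and E12.5 control 2, and highest in Sox9null 2. Epcam went the other way in all of these libraries. How many of all genes share these orders was not counted. All of these are values of single libraries, chosen after they were seen, and no test was made.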
